A study of Homo sapiens with 2 samples.

Results

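The genes YAP1, WWTR1 (which encodes TAZ), TEAD1, TEAD4, CCN1 (formerly CYR61), CCN2 (formerly CTGF), ANKRD1, AMOTL2, LATS2 and AXL form the output arm of the Hippo pathway. They were chosen by name, and each was represented by the array row whose annotation gives that gene and no other. All 10 were found, among 22465 genes measured by such a row, and each of the 10 had exactly 1 row. The cells were KYSE150, an esophageal squamous carcinoma cell line of human origin, infected with a lentivirus for a short hairpin that targets lncRNA625, a long non-coding RNA (lncRNA625 knockdown), or for a scrambled hairpin (shscramble control). Per the study's methods both lines were grown under puromycin and several cell clones were screened for knockdown, and the sources used here do not say whether the array RNA came from 1 clone or a pool. Each group was 1 Affymetrix Human Transcriptome Array 2.0, so the 2 arrays gave no replicate, no error and no test, and every difference below compares 2 samples and not 2 conditions.

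The Hippo pathway is a kinase cascade that senses cell contact, polarity and tension. Its last kinases, LATS1 and LATS2, phosphorylate the coactivators YAP and TAZ and keep them in the cytoplasm, and when the cascade is off YAP and TAZ enter the nucleus, bind the TEAD transcription factors and switch on target genes. CCN1, CCN2, ANKRD1, AMOTL2, AXL and LATS2 itself are widely used as readouts of this step, and in squamous epithelium YAP is known for its role in basal cells and in growth of carcinomas. YAP and TAZ are regulated mostly as proteins, by phosphorylation, location and turnover, none of which an RNA array measures.

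Of the 10 genes, 8 had exactly the same value on both arrays, 2 were lower on the knockdown array and 0 were higher. AXL was the gene that differed most, by -0.26 on the log2 scale, and CCN1 differed by -0.02. In RNA of a whole culture, fewer cells with a transcript and less of it per cell cannot be told apart. None passed 1.5-fold, the limit in the study's results, while 1.59% of all 11323 genes past the signal limit did in either direction. The study's methods give a limit of 2-fold instead. The signal limit, 4.97, is the median over all single-gene rows, and 8 of the 10 genes reached it. Of those 8, 6 were equal and 2 lower, where 76.0% of all genes past the limit were exactly equal, 12.1% lower by any amount and 11.8% higher. The median difference was 0 for the 8 genes and 0 for all 11323.

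**Figure D1:**
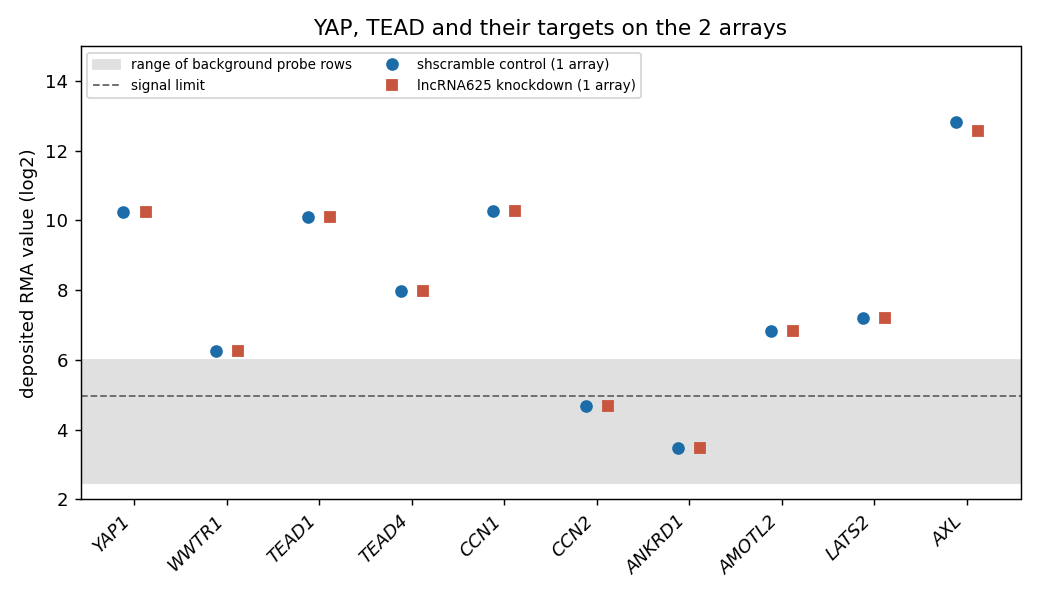
Deposited log2 value (vertical axis) of each of the 10 genes on the shscramble control array (circles) and the lncRNA625 knockdown array (squares), 1 array per group, with the range of 23 background probe rows in grey and the signal limit of 4.97 as a dashed line. Only AXL shows a visible gap, 12.81 against 12.55, and CCN2 and ANKRD1 lie within the grey range.

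The exact equality limits what these arrays can show. Values that agree to every deposited digit are not 2 independent readings of the same level, and the sources used here name no step that would make them. Some different genes also shared a value to every digit. The pathway genes NF2 and FRMD6 were both at 8.300194 in control cells, and the markers CDX2, PECAM1 and KDR at 3.525974 on both arrays. Such ties limit the levels as well as the differences. The share of equal values fell with the level of the row, from 94.6% of genes with a mean of 3 to 4 to 62.9% at 10 to 11 and 49.1% at 12 to 13. A gene listed as equal was therefore not shown to be unchanged.

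**Figure D2:**
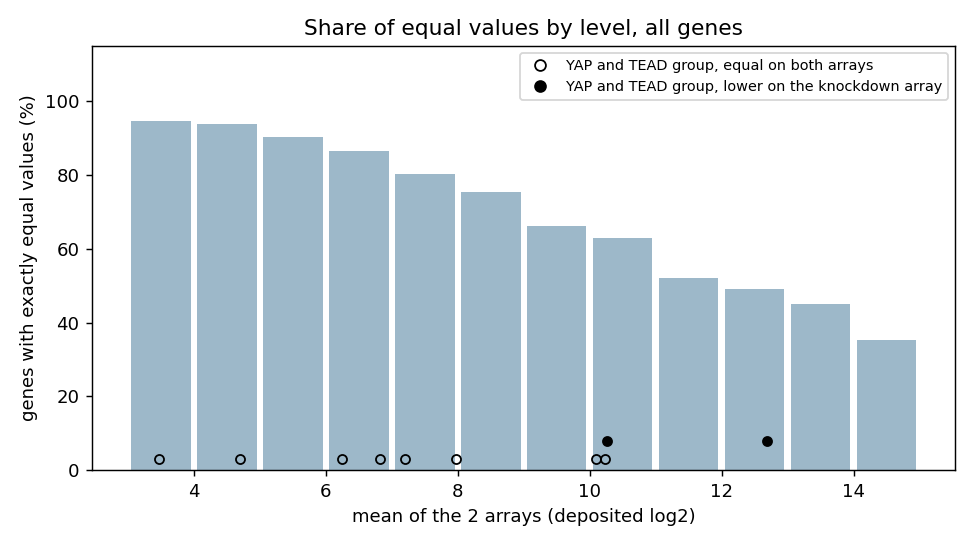
Share of genes with exactly equal values on both arrays (vertical axis, percent) by the mean of the 2 arrays (horizontal axis, deposited log2, bins of 1). It covers genes with a row of their own and a mean from 3 to below 15. Open circles mark the 8 equal genes of the YAP and TEAD group and filled circles CCN1 and AXL, placed by their mean, with no meaning in their height. The share falls from 94.6% to 35.3% across the bins shown, and CCN1 lies in the bin with 62.9% and AXL in that with 49.1%.

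YAP1, the coactivator on which the cascade converges, was at 10.23 on both arrays. Of the 940 genes with a mean within 0.5 of its own, 62.6% were equal too. WWTR1, the gene of its paralog TAZ, was at 6.24 on both arrays, just above the highest background probe row, 6.003. The background rows carry probes without a matching human transcript and spanned 2.47 to 6.003, with a median of 3.34. Both coactivator genes were thus above background on either array with no difference listed.

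TEAD1 and TEAD4 encode members of the TEAD family, the DNA-binding partners through which YAP and TAZ reach these targets. TEAD1 was at 10.09 on both arrays and TEAD4 at 7.96 on both. Among the genes within 0.5 of their means, 63.1% of 996 and 77.2% of 1717 were equal. The other members of the family, TEAD2 and TEAD3, were at 7.16 and 5.80 on both arrays, the latter within the background range. Rows differ in how strongly their probes bind, so these levels do not rank the TEAD genes or the coactivators against each other.

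Sequences around the start sites of these genes are shown because the TEAD factors recognise a short motif, GGAATG, which reads as CATTCC on the other strand and is the link between the coactivators above and the targets below. Promoter windows of RefSeq, build GRCh38.p14, spanning 250 bases before to 50 after a start site, were found for 7 of the 10 genes, 10 windows in all. TEAD1, TEAD4 and CCN1 were not among them. Of all 35116 windows 14.0% held the motif on either strand, and 1.37% held 2 or more copies. Of the 10 windows 6 held it, in YAP1, CCN2, ANKRD1, AMOTL2, LATS2 and AXL, and both windows of WWTR1 held none. AMOTL2 and AXL each had another window, at a start site further upstream, which did not hold the motif. Capitals mark the motif in each sequence, written 5′ to 3′ on the strand of the gene. The whole 250 bases before the start site are given for CCN2 (chr6:131951373-131951622, minus strand) with 3 copies and for ANKRD1 (chr10:90921088-90921337, minus strand) with 2, and 30 bases around the single copy for AMOTL2 (chr3:134374499-134374528, minus strand), AXL (chr19:41226531-41226560, plus strand), LATS2 (chr13:21061560-21061589, minus strand) and YAP1 (chr11:102110273-102110302, plus strand).
CCN2: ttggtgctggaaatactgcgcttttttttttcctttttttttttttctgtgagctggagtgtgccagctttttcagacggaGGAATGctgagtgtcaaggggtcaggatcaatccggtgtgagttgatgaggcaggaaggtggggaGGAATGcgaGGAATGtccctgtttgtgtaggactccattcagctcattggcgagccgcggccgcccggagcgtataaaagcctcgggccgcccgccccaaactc
ANKRD1: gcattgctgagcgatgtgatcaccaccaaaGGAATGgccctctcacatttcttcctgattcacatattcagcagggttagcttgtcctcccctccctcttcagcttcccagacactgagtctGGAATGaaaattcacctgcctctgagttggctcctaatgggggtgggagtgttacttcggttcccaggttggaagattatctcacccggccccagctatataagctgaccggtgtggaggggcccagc
AMOTL2: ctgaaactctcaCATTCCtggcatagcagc
AXL: cagactttgcacCATTCCactccctccgct
LATS2: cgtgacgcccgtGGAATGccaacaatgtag
YAP1: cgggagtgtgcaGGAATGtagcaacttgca

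The copies in CCN2 begin 169, 104 and 95 bases before the start site, and those in ANKRD1 220 and 128 bases before it. The single copies in AMOTL2, AXL and YAP1 begin 69, 212 and 162 bases before the start site of their window. For AMOTL2 and AXL this is the more downstream start site. The copy in LATS2 begins at base 10 after the start site, within the transcribed part. Only 0.128% of all windows held 3 or more copies, as CCN2 does. CCN2 and other genes here were chosen by name as known readouts, so the motif shares are no test of the group. A match is a run of letters and not a bound site, and no binding was measured here. For AP-1, a factor that often sits beside TEAD on enhancers, the pattern TGANTCA was searched, with any base at N. It was in 1 of the 10 windows, that of ANKRD1, against 7.71% of all windows. The pattern is looser than the AP-1 motif, which has C or G at N, and the ANKRD1 match reads TGATTCA. The match did not overlap either TEAD motif of that window.

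CCN2 and ANKRD1, the 2 genes with several copies of the motif, were both at the level of dim rows. CCN2, a secreted matricellular protein, was at 4.69 on both arrays, and ANKRD1, a nuclear and sarcomeric ankyrin repeat protein best known from muscle, at 3.46 on both. Both lay below the signal limit and within the range of the background rows. Of genes within 0.5 of those means 93.3% of 3918 and 94.4% of 5666 were equal, so for these 2 targets the arrays gave no reading above background on either side.

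CCN1, the close relative of CCN2 and likewise a secreted matricellular protein, was well above background, at 10.27 in control and 10.26 in knockdown cells. The difference of -0.02 is a linear ratio of 0.989 on the deposited scale. Of the 925 genes with a mean within 0.5 of that of CCN1, 34.8% differed by at least as much in either direction and 62.5% were equal. The other members of the CCN family, CCN3, CCN4, CCN5 and CCN6, were at 3.55, 3.90, 5.22 and 4.29 on both arrays, all within the background range. CCN1 was thus the only CCN gene with a signal above the background rows on these 2 arrays.

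AMOTL2, an angiomotin that holds YAP at junctions, and LATS2, the kinase that phosphorylates YAP, act as feedback inhibitors, being both targets and brakes of the pathway. AMOTL2 was at 6.82 on both arrays and LATS2 at 7.21 on both. Among genes within 0.5 of their means 84.8% of 2018 and 82.7% of 1946 were equal. LATS1, the sister kinase of LATS2, was at 8.95 on both arrays.

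AXL, a receptor tyrosine kinase linked to invasion and drug resistance in carcinomas, was at 12.81 in control cells and 12.55 in knockdown cells. Its difference of -0.26 is a linear ratio of 0.833 on the deposited scale. Of the 303 genes with a mean within 0.5 of that of AXL, 49.2% were equal, 36 (11.9%) differed by at least as much in either direction and 22 were lower by at least as much. A difference of this size was thus not rare at this level, and with 1 array per group its error is unknown. The related receptors TYRO3 and MERTK were at 6.20 and 5.08 on both arrays. GAS6 and PROS1, which are ligands within this receptor family but do not each bind every member, were at 7.06 and 7.86 on both.

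The family of ANKRD1 contained a larger difference, in a gene outside the YAP readouts listed above. ANKRD2, a muscle ankyrin repeat protein, was at 10.16 in control and 9.02 in knockdown cells, a difference of -1.13, and ANKRD23 was at 4.45 on both. Among all 11323 genes past the signal limit 54 (0.477%) were lower by more than 1.5-fold and 11 by more than 2-fold. Of 1227 genes with a mean of 9 to 10, 13 were lower by more than 1.5-fold. With 1 array per group the error of this difference is unknown. The families of CCN1, AXL and ANKRD1 were added after values had been seen, with every listed member given.

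The rest of the pathway was followed in 4 lists of 58 genes together, of which 53 had a row of their own and 46 were past the signal limit. Of the 46, 10 were higher, 28 equal and 8 lower, beside 11.8%, 76.0% and 12.1% of all genes past the limit. These shares depend on level, and among 2233 genes whose mean reached 10 the equal share was 53.8%. Of the 46 genes 2 passed 1.5-fold, 1 in each direction, beside 1.11% of all genes higher and 0.477% lower by that much. The median was 0 in each list, as over all genes past the limit.

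**Figure D3:**
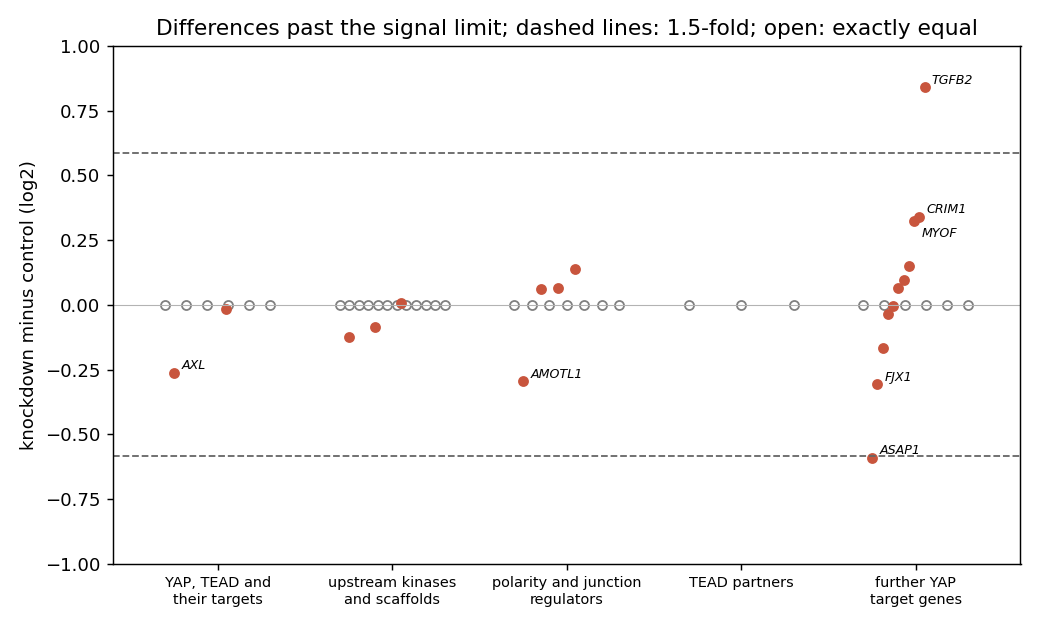
Difference of knockdown minus control (vertical axis, log2) for each gene past the signal limit in the YAP and TEAD group and in the 4 lists of further pathway genes, 1 array per group; open circles are exactly equal values, filled circles values that differ, and dashed lines mark 1.5-fold. TGFB2 at 0.84 lies above the upper line and ASAP1 at -0.59 just past the lower one, while all kinases, scaffolds and TEAD partners lie close to 0.

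Among upstream kinases and scaffolds of the cascade, 12 of 15 were equal, 1 was higher and 2 were lower, none past 1.5-fold. The equal share was near the 76.0% of all genes past the limit. STK4, one of the kinases that activate LATS, was at 10.15 on both arrays, and the adaptor SAV1 at 9.19 on both. MOB1B, a cofactor of the LATS kinases, was at 7.26 in control and 7.13 in knockdown cells, a difference of -0.12. FRMD6, a membrane scaffold, differed by -0.09. WWC1 (KIBRA), the 1 gene counted as higher, differed by 0.01, which became -0.0024 once the loess curve of difference against mean was removed, so it has no settled direction. NF2 (merlin), which recruits LATS to the membrane, was at 8.30 on both.

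Polarity and junction regulators were equal in 7 of 11 cases, with 3 higher and 1 lower, beside 76.0%, 11.8% and 12.1% of all genes past the limit. AMOTL1, an angiomotin like AMOTL2, was at 11.10 in control and 10.80 in knockdown cells, a difference of -0.29, the largest in this list. AJUBA, a LIM protein that binds and inhibits LATS, was at 11.64 and 11.78, a difference of 0.14. DLG1, a polarity scaffold, and PTPN14, a phosphatase that binds YAP, each differed by 0.06. The cadherin FAT1 was at 11.38 on both arrays. Of the TEAD partners, TEAD2, TEAD3 and VGLL4 were past the limit and equal, and VGLL1, VGLL2 and VGLL3 lay below it at 4.52, 3.79 and 3.34 on both arrays.

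Further YAP target genes went both ways, with 6 higher, 6 equal and 5 lower of 17, beside 11.8%, 76.0% and 12.1% of all genes past the limit. The equal share depends on level. Of the 8 with a mean of at least 10, a level chosen after the values were seen, 5 were higher, 0 equal and 3 lower. Among all 2233 genes at that level 422 were higher, 1202 (53.8%) equal and 609 lower. TGFB2, a secreted ligand of the TGF-beta family, was at 11.82 in control and 12.66 in knockdown cells, a difference of 0.84 and a linear ratio of 1.79. ASAP1, an Arf GTPase-activating protein of focal adhesions, was at 11.45 and 10.86, a difference of -0.59 and a linear ratio of 0.665, barely past the limit. These 2 genes of the same list lay on opposite sides.

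CRIM1, a transmembrane protein that binds growth factors, was at 11.04 and 11.38, a difference of 0.34. MYOF, a membrane repair protein, was at 13.79 and 14.12, a difference of 0.32. FJX1, a secreted kinase-like protein of the planar polarity pathway, was at 9.81 and 9.51, a difference of -0.31. These 3 stayed short of 1.5-fold.

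F3, tissue factor, was higher by 0.15 and THBS1, a matricellular protein, by 0.10 from a control value of 15.61. CCND1, cyclin D1, differed by -0.17 and DOCK5 by -0.04. BIRC5 (survivin) differed by -0.01, which became 0.00022 after a further quantile normalization. IGFBP3 differed by 0.07 from a control value of 5.51, within the background range. MYC was at 6.59 and GADD45A at 8.46 on both arrays. Of 13 further target genes with a promoter window, 5 held the TEAD motif in at least 1 window. The windows holding it were 5 of 15, beside 14.0% of all windows. No such share per gene was computed over all genes. These genes were listed by name as YAP targets, so their motif shares are no test of the list.

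The labelled cell type was checked on markers. KRT5, a basal squamous keratin, was at 16.50 in control and 16.11 in knockdown cells, SOX2 was at 7.87 and 8.40, and KRT14 was at 5.63 on both, within the background range. The other squamous markers listed, KRT6A, KRT17 and TP63, had no row of their own and could not be read. The 17 fibroblast, endothelial, leukocyte and columnar markers with a row of their own lay between 3.50 and 4.68 on both arrays, below the signal limit. Their summed levels were equal between the arrays in each of the 4 lists and say little, since 94.6% of all genes with means of 3 to 4 and 93.9% of those with means of 4 to 5 were equal. Their part in the differences of AXL and TGFB2 was not tested. Over all 70523 rows the array medians were 4.34 (control) and 4.35 (knockdown). The level of lncRNA625 was not analysed here, so the knockdown label was not checked against it.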

How the data were processed

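Total RNA of 1 KYSE150 sample per group was measured on biotin-labelled targets with the Affymetrix Human Transcriptome Array 2.0. The series and the study's methods name a stable hairpin, while 1 sample label names siRNA. The authors deposited log2 values, made with RMA per the labels (no version given), which reach 19.93, by a step that is not stated. Fold limits therefore hold on that scale only.

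Of 70523 rows, 23781 carried exactly 1 gene symbol in the platform annotation and 1543 several, from which no gene was named. Symbols were updated by gene ID to RefSeq (GRCh38.p14), which matched 21497 rows. The brightest row stood for each of 22465 genes, and 11323 had a mean at or above 4.97. Differences are knockdown minus control, called past 1.5-fold, with 2-fold, the limit in the study's methods, as an alternative. All 10 member genes are named, and in each list those past 1.5-fold and the 4 with the largest absolute difference; other list genes were chosen with values known. The members and lists were chosen with earlier results of these data known. No likeness of pattern between genes was computed, since 2 arrays give none.

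Settings varied were the centring of each array on its median, quantile normalization once more, subtraction of a loess curve (span 0.3, without robust iterations, since most differences are 0), the mean over a gene's rows, no signal limit, a limit at the 75th percentile and, added after seeing the data, at the highest background row. Only the calls past 1.5-fold were tested on simulated data, in which 200 genes given a shift were to be found again. The shift lay well past the limit and no noise was added, so recovery was certain. It checks the code only and says nothing about differences near the limit. The motif search and the varied settings were not tested in this way. Motifs were searched on both strands. Python 3.11.15, pandas 2.3.3, NumPy 2.4.6, statsmodels 0.14.6 and matplotlib 3.10.9 were used.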

Additional observations from a re-analysis of the deposited data

How the results depend on the processing

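The differences of the 10 genes depended little on the settings varied here. All settings start from the deposited values, so the unstated step behind the equal values was not varied. Each of the 10 genes had 1 row, so averaging rows could not shift it, and centring moved every difference by the same small amount. Centring on the median, quantile normalization once more, subtraction of the loess curve and averaging the rows of each gene shifted the differences of these 10 genes, and of the 21 other genes of the lists, markers and families that differed past the signal limit, by at most 0.03. The sign of WWC1 turned under the loess curve and that of BIRC5 under the second quantile normalization, and AXL stayed between -0.28 and -0.26. Centring, the second normalization and the loess curve each moved nearly all rows a little, so that by construction no value stayed equal: of the 8 genes past the limit 8 were then lower and 0 equal, still none past 1.5-fold, and of the pathway genes 36, 32 and 37 were lower and 0 equal. The signal limit at the 75th percentile left 5 of the 10 genes, 3 of them equal, and 13 equal pathway genes, and 76 higher genes among all. At 2-fold 0 pathway genes passed, and 33 genes were higher and 11 lower among all. Without a signal limit, or with it at the highest background row, no count moved by more than 1.5 times. No paired analysis was possible because each group holds 1 array, which is also why no array could be left out. The number of arrays limits the precision, and the equal values and the background range limit what the dim genes CCN2 and ANKRD1 can show.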
